A study of Mus musculus with 19 samples.

Results

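The genes described here encode 8 secreted or surface proteins with which a wet epithelium such as that of the eye defends itself against microbes. They were *Lcn2*, *Ltf*, *Slpi*, *Wfdc2*, *Pigr*, *Defb1*, *Pglyrp1* and *Camp*, chosen by name, and all 8 were among the 24547 genes listed once in both tables. Their transcripts were measured by RNA sequencing in the cornea and the conjunctiva of C57BL/6 mice that either ate freely (ad libitum, AL) or were kept on calorie restriction (CR). The cornea gave 5 AL and 5 CR libraries and the conjunctiva 4 AL and 5 CR libraries. By the study's methods the mice were female C57BL/6J, restriction was built up stepwise in adulthood and lasted several months, corneal epithelial cells were scraped off and conjunctiva was excised. Those methods describe more than 1 diet cohort, and the labels do not assign a library to a cohort. The titles also carry the marks 6M and 50W, which the labels do not explain. No group carried a transgene or a deletion by the labels. Each library goes by its tissue, its diet and its title number. Titles that share a number across tissues may come from the same mouse, and the labels do not say that each library was a separate animal, so p-values measure the spread between these libraries.

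Epithelial defense proteins act in several ways. Lipocalin-2 (*Lcn2*) captures bacterial siderophores and lactoferrin (*Ltf*) binds iron itself, so both deny microbes iron. *Slpi* and *Wfdc2* encode small inhibitors with whey acidic protein domains, the first of which blocks neutrophil elastase. *Pigr* encodes the receptor that carries polymeric IgA through epithelial cells into tears and mucus. *Defb1* encodes a beta-defensin and *Camp* a cathelicidin, both cationic peptides that damage microbial membranes. *Pglyrp1* encodes a secreted protein that recognizes bacterial peptidoglycan. Many of these genes respond to interleukins and to bacterial products through NF-kappaB and C/EBP factors, and several are also made by neutrophils or by glands that feed the tear film.

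The positions below are those of the RefSeq annotation of the mouse build GRCm38.p6, and the tables themselves carry no coordinates. *Slpi* at chr2:164354070-164356507 (minus strand) and *Wfdc2* at chr2:164562715-164568510 (plus strand) lay 206 kb apart on chromosome 2, where *Lcn2* lay at chr2:32384637-32387739 (minus strand). *Ltf* lay at chr9:111019292-111042766 (plus strand) and *Camp* at chr9:109847377-109849456 (minus strand), 1170 kb apart. *Pigr* lay at chr1:130826684-130852249, *Defb1* at chr8:21776555-21795185 and *Pglyrp1* at chr7:18884690-18890438, all on the plus strand. A microRNA gene, *Mir7678*, lay within *Slpi* on the same strand, so reads of the pair cannot be separated in that stretch.

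The 250 bases before the annotated start are shown for *Lcn2* and *Ltf*, which had the smallest p-values in the conjunctiva, and for *Pigr* and *Slpi*, which had the largest decreases in the cornea. They were read from the RefSeq promoter table of GRCm38.p6, which held 7 of the 8 genes, and are written 5′ to 3′ on the strand of the gene. Capitals mark matches to 2 motifs that were chosen after the values were known. These were the E-box CACGTG and TTGCNNAA, a core of C/EBP sites, searched on both strands. The spans are chr2:32387740-32387989 for *Lcn2*, chr9:111019042-111019291 for *Ltf*, chr1:130826434-130826683 for *Pigr* and chr2:164356508-164356757 for *Slpi*.
Lcn2: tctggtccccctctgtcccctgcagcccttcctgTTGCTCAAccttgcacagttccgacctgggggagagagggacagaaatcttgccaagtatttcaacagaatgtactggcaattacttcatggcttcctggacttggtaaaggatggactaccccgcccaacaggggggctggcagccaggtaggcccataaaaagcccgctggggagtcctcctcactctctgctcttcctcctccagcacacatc
Ltf: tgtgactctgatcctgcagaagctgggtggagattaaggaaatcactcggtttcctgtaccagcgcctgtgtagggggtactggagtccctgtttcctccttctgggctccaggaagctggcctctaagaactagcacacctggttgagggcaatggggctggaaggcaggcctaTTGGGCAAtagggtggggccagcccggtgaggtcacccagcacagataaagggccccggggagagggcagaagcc
Pigr: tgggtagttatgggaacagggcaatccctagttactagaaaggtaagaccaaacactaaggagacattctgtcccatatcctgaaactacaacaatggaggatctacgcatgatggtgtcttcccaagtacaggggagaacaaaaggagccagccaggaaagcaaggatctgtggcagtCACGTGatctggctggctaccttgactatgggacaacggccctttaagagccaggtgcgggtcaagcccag
Slpi: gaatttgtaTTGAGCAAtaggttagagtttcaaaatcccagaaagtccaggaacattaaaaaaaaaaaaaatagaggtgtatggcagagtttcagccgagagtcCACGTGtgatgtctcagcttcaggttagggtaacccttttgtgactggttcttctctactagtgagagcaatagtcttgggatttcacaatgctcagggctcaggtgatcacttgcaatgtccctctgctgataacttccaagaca
The C/EBP-like letters stood in *Lcn2*, *Ltf* and *Slpi*, 216, 75 and 241 bases before the start, and in 9.56% of all 32851 windows of this length. The E-box stood in *Pigr* and *Slpi*, 71 and 146 bases before the start, and in 6.02% of the windows. The windows of *Wfdc2*, *Camp* and *Pglyrp1* were searched too and held neither motif. So of the 7 members with a window, 3 held the C/EBP-like letters and 2 the E-box. Neither motif overlapped the other. A match of letters is a description of the sequence and does not show that a factor binds there.

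Counted reads per library ranged from 10353873 to 14680980, and a count of 0 allows at most 3 reads, equal to 2.27 to 3.37 normalized counts by library (counting error only). A normalized count is a read count after division by the size factor. Of the listed genes, between 33.6% and 47.6% had 0 reads in a library. The labelled tissues were checked against their markers. *Krt12*, the keratin of corneal epithelium, had 179846 to 340965 normalized counts in cornea libraries and 436 to 5139 in conjunctiva libraries, whereas *Muc5ac*, the gel mucin of goblet cells, had 0 to 43.3 in the former and 2328 to 6593 in the latter. The cornea library CR 7 stood apart, with the lowest *Krt12* (179846) and the highest *Krt4* (10724), a keratin of conjunctival epithelium, where the other cornea libraries had 2048 to 7764 of *Krt4*. Corneal *Krt4* was also higher under CR before adjustment, with 3 of 5 CR libraries above all AL libraries (log2 change 0.96 ± 0.29, SE, limma adjusted p = 0.137). Of 11 conjunctival epithelium and goblet cell genes 6 were tested in the cornea. Under CR 5 of these were higher, 2 at an unadjusted limma p under 0.05, beside 18.1% of all tested genes, and none was called. The cornea library AL 1 held 71876 normalized counts over 17 lacrimal gland genes, against 58.5 to 1761 in the other cornea libraries. This list also differed by diet in the cornea, since all 13 of its tested genes had a lower mean under CR, with a median log2 change of −4.25 and 2 genes called, *Scgb1b20* and *Scgb2b24*. In bulk tissue, fewer cells of a type and less RNA per cell cannot be told apart.

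**Figure D1:**
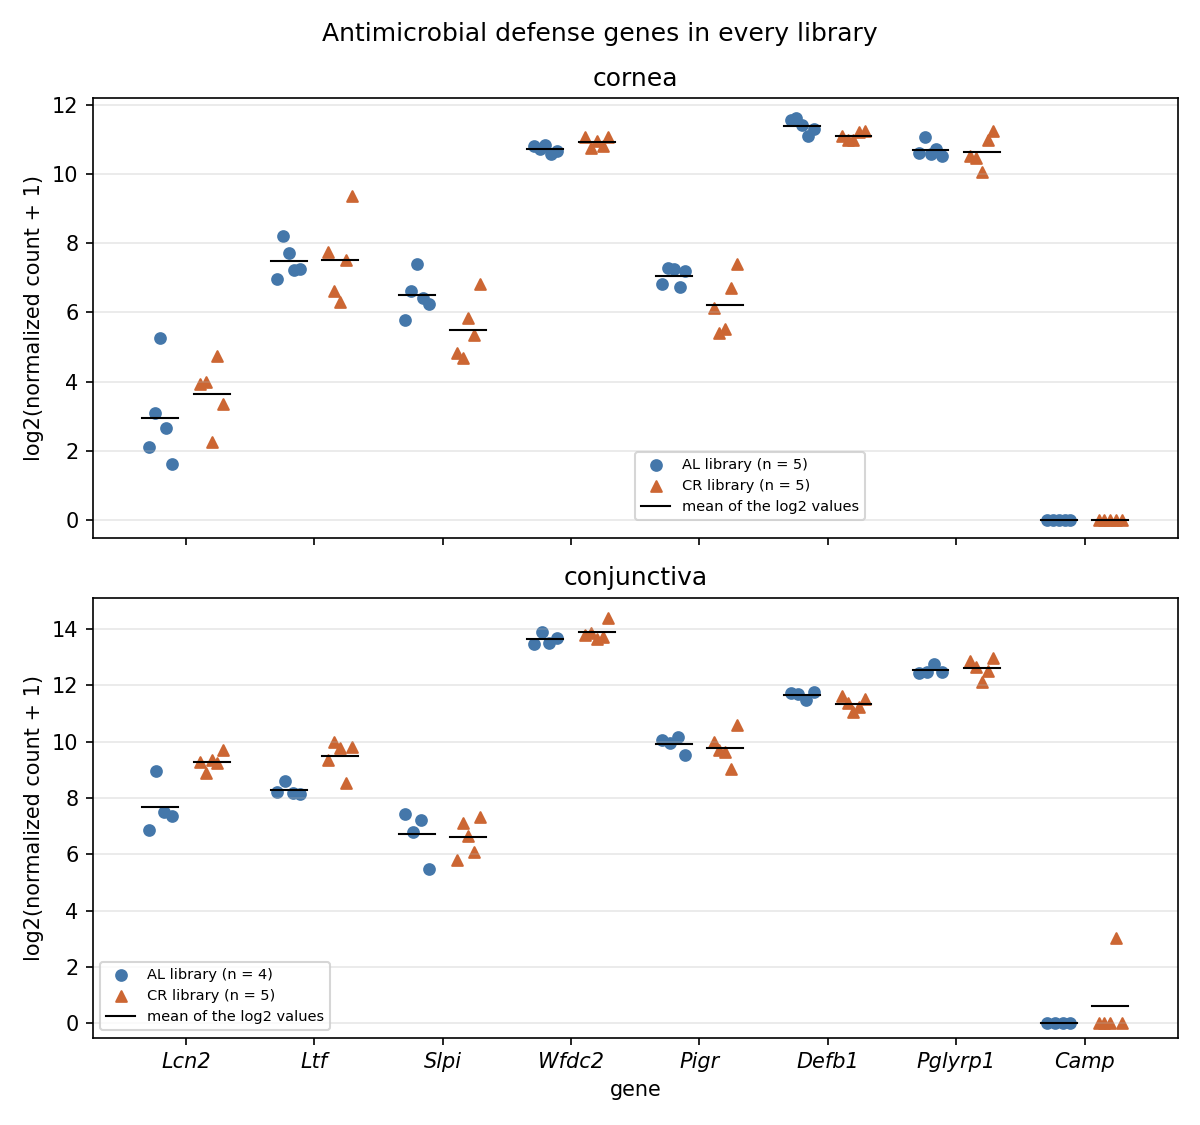
The vertical axis is log2(normalized count + 1) and each point is a library, with circles for AL (5 cornea, 4 conjunctiva) and triangles for CR (5 per tissue); lines are means of the log2 values. In the conjunctiva, 4 of 5 CR libraries lie above all AL libraries for *Lcn2* and for *Ltf*, and *Camp* is at 0 in all libraries but conjunctiva CR 4.

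The first question was which of these genes CR changed in each tissue. None of the 7 members tested in the cornea was called changed (limma, Benjamini-Hochberg adjusted p under 0.05 and fold over 1.5), where 1.22% of the 12277 tested genes were called. None of the 7 tested in the conjunctiva was called either, where 0.359% of 13928 genes were. Voom on the recovered reads also called 0 members in each tissue. *Camp* was below the filter of a mean of 10 normalized counts in both tissues and was not tested. At an unadjusted p under 0.05 stood 3 members in the cornea, *Pigr*, *Defb1* and *Slpi*, all lower under CR, beside 18.1% of all tested genes. In the conjunctiva these were *Ltf* and *Lcn2*, both higher, and *Defb1*, lower, beside 9.4% of all tested genes. The AL and CR libraries overlapped for every member in both tissues, where 3.97% of tested genes in the cornea and 3.86% of those in the conjunctiva had groups without overlap. Members had a median log2 change of −0.05 (cornea) and 0.09 (conjunctiva), against −0.03 and −0.02 over all tested genes.

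**Figure D2:**
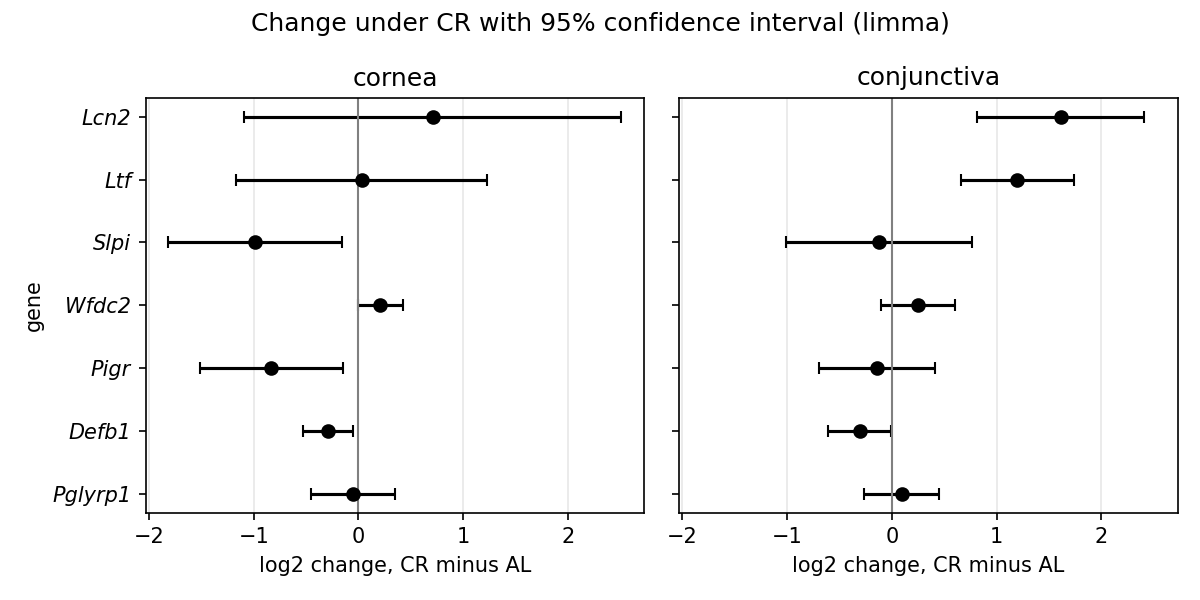
The horizontal axis is the log2 change, CR minus AL, on log2(normalized count + 1), with the 95% confidence interval of the limma fit for the 7 tested genes in each tissue. The intervals of *Lcn2* (0.81 to 2.41) and *Ltf* (0.66 to 1.74) lie above 0 in the conjunctiva, and those of *Slpi*, *Pigr* and *Defb1* lie below 0 in the cornea, before any adjustment for the number of genes.

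*Lcn2* was higher in 4 of 5 conjunctival CR libraries than in every AL library. Its normalized counts were 116, 497, 179.7 and 164 in AL 1, AL 3, AL 4 and AL 5, and 613, 469, 649.8, 600.4 and 836 in CR 1, CR 2, CR 3, CR 4 and CR 5. The groups overlapped through a single pair, since AL 3 lay above CR 2. The mean went from 239 ± 174 (SD, n = 4) to 634 ± 132 (SD, n = 5), and the log2 change was 1.61 ± 0.36 (SE, limma adjusted p = 0.118), which did not pass. Without AL 3 the log2 change was 2.04 with a limma adjusted p of 2.9e-04, while over all libraries left out in turn the adjusted p ran from 2.9e-04 to 0.342. AL 3 also had the highest *S100a8* and *S100a9* of the AL libraries, the 2 subunits of calprotectin, a metal-binding protein abundant in neutrophils. *S100a8* stood at 132 normalized counts in AL 3 and at 9.65, 22.6 and 20.0 in AL 1, AL 4 and AL 5, and at 28.7 to 133 under CR. *S100a9* stood at 252 in AL 3 and at 16.1, 59.2 and 46.3 in the other AL libraries, and at 70.4 to 341 under CR. The neutrophil list as a whole summed to 1752 to 2043 normalized counts in AL and 1101 to 2500 in CR libraries of the conjunctiva. Most of each sum came from list genes not named here, and whether the sum follows neutrophils was not tested. Of the 17 genes of the list 8 were tested there, 3 of them higher and 5 lower under CR. Its granule genes *Mpo* and *Elane* and its surface marker *Ly6g* were at 0 in all 19 libraries, and *Ngp* did not exceed 7.67. Other genes of the list had reads in the conjunctiva. *Cxcr2* stood at 60.6 in AL 3, at 0 to 9.68 in the other AL libraries and at 10.6 to 167 under CR. *Csf3r* had 0.908 to 11.8 in AL and 0.952 to 19.9 in CR, and *Retnlg* 5.63 to 94.7 and 5.54 to 62.3. *Mmp9*, also in the sum, went the other way from *Lcn2*, with 325 to 595 in AL and 142 to 301 in CR. The part of these markers in the *Lcn2* values was not tested.

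Conjunctival *Ltf* was also higher under CR before adjustment, but its libraries stood in another order than for *Lcn2* (r = 0.27 after the mean of each diet was removed). It had 297, 393, 286 and 283 normalized counts in AL 1, AL 3, AL 4 and AL 5, and 647, 1018, 867, 373 and 894 in CR 1 to CR 5. Again 4 of 5 CR libraries lay above all AL libraries, and the exception was CR 4, which lay below AL 3. The mean went from 315 ± 52.3 (SD, n = 4) to 759.9 ± 254 (SD, n = 5), and the log2 change of 1.2 ± 0.25 did not pass (SE, limma adjusted p = 0.0681). Without CR 4 the log2 change was 1.44 with a limma adjusted p of 0.0021, in a range of 0.0021 to 0.236 over the libraries left out in turn. With array weights, which give less weight to libraries that deviate more, it was 1.28 with an adjusted p of 0.0116. That was the lowest in a range of 0.0116 to 0.189 over all processing alternatives, and no other processing alternative called *Ltf*. The lacrimal gland list, whose tissue is a known source of lactoferrin in tears, summed to 912 to 1762 normalized counts in AL and 292 to 1173 in CR libraries of the conjunctiva, and 3 of its 4 tested genes were lower under CR. Its part in the *Ltf* values was not tested.

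**Figure D3:**
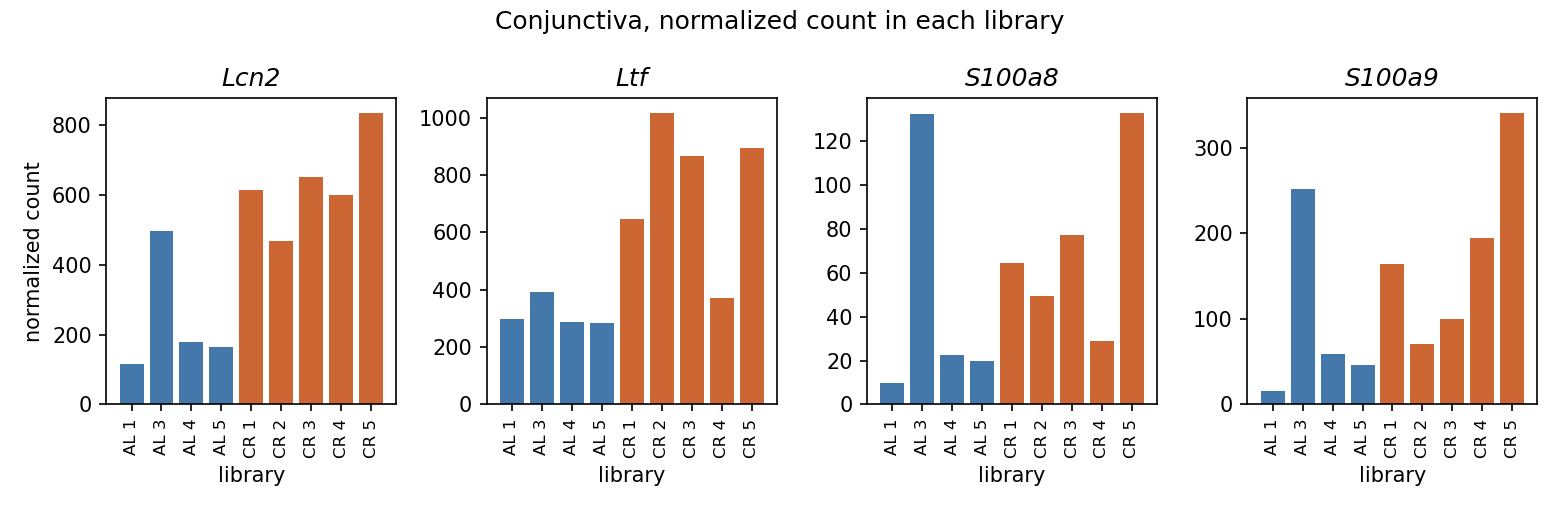
Bars give the normalized count of *Lcn2*, *Ltf*, *S100a8* and *S100a9* in each conjunctival library (blue, AL; orange, CR; each panel has its own axis from 0). AL 3 has the highest value of the AL libraries in all 4 panels, and CR 4 has the lowest *Ltf* of the CR libraries.

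In the cornea both iron-withholding genes varied widely. *Lcn2* had 3.30, 7.65, 37.1, 5.31 and 2.06 normalized counts in AL 1 to AL 5, and 14.2, 15.1, 3.79, 25.5 and 9.29 in CR 1, CR 2, CR 3, CR 4 and CR 7. These values rest on 2 to 34 reads per library, and AL 1 and AL 5 were at or below the 3 reads that a count of 0 allows. The log2 change was 0.71 with a 95% interval of −1.09 to 2.51 (limma adjusted p = 0.696), and the coefficient of variation was 133% in AL and 59.4% in CR. Corneal *Ltf* had 123, 297, 209.6, 148 and 152 normalized counts in AL 1 to AL 5, and 212, 98.0, 77.3, 181 and 658 in CR 1, CR 2, CR 3, CR 4 and CR 7. The CR group held both the highest and the lowest library, with a coefficient of variation of 96.8% against 37.5% in AL. The log2 change was 0.03 ± 0.54 (SE, limma adjusted p = 0.983), and without CR 7 it was −0.43 (adjusted p = 0.513, in a range of 0.513 to 0.992 over the libraries left out). AL 1, the library rich in lacrimal gland transcripts, had the lowest *Ltf* of the AL libraries.

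The elastase inhibitor *Slpi* was lower under CR in the cornea before adjustment. It had 53.9, 98.3, 168, 84.0 and 75.2 normalized counts in AL 1 to AL 5, and 27.4, 24.5, 56.8, 39.9 and 113 in CR 1, CR 2, CR 3, CR 4 and CR 7. CR 1, CR 2 and CR 4 lay below every AL library, while CR 7 lay above 4 of the 5. The mean went from 95.9 ± 43.4 to 52.4 ± 36.4 (SD, n = 5 per diet), and the log2 change was −0.99 ± 0.39 (SE, limma adjusted p = 0.203). Conjunctival *Slpi* had 170.4, 109, 148 and 43.6 normalized counts in AL 1, AL 3, AL 4 and AL 5, and 54.5, 139, 100.4, 66.6 and 161 in CR 1 to CR 5. Each diet spanned nearly the same range there, and the log2 change of −0.13 had a 95% interval of −1.01 to 0.76 (limma adjusted p = 0.950).

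*Wfdc2*, the other gene with whey acidic protein domains, varied little among cornea libraries. Its corneal counts were 1777, 1673, 1815, 1524 and 1632 in AL 1 to AL 5, and 2125, 1713, 1966, 1800.4 and 2159 in CR 1, CR 2, CR 3, CR 4 and CR 7. CR 1, CR 3 and CR 7 lay above every AL library, and the coefficients of variation were 6.92% in AL and 10.02% in CR. The log2 change was 0.21 ± 0.10 (SE, limma adjusted p = 0.293). In the conjunctiva it had 11223, 15368, 11512 and 12954 normalized counts in AL 1, AL 3, AL 4 and AL 5, and 14156, 14951, 12894, 13291.5 and 21332 in CR 1 to CR 5. Only CR 5 lay above all AL libraries, and the log2 change was 0.25 with a 95% interval of −0.10 to 0.60 (limma adjusted p = 0.686).

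*Pigr*, the IgA transporter, had the smallest p-value of the members in the cornea. It had 112, 154, 153, 105 and 146 normalized counts in AL 1 to AL 5, and 69.0, 41.5, 44.7, 103 and 166 in CR 1, CR 2, CR 3, CR 4 and CR 7. All CR libraries but CR 7 lay below every AL library, and CR 7 was the highest of the 10. The mean went from 134 ± 23.5 to 84.9 ± 51.7 (SD, n = 5 per diet), and the log2 change was −0.83 ± 0.32 (SE, limma adjusted p = 0.195), which did not pass. Without CR 7 the log2 change was −1.12 and the limma adjusted p 0.0480, in a range of 0.0480 to 0.378 over the libraries left out. With array weights it was −1.06 with an adjusted p of 0.0199. That was the lowest in a range of 0.0199 to 0.459 over all processing alternatives, and no other processing alternative called it. In the conjunctiva *Pigr* had 1064, 991, 1134 and 742 normalized counts in AL 1, AL 3, AL 4 and AL 5, and 1004, 828, 785, 519 and 1543 in CR 1 to CR 5. The CR group held the lowest and the highest library, and the log2 change was −0.14 with a 95% interval of −0.70 to 0.41 (limma adjusted p = 0.904). *Jchain*, which links the IgA that this receptor carries, had 0 to 30.8 normalized counts in cornea libraries and 7.86 to 209.8 in conjunctiva libraries. Of the 14 plasma and B cell genes, 11 were listed, and of these 1 was tested in the cornea and 3 in the conjunctiva, all lower under CR and none called. The corneal list summed to 9161 to 15058 normalized counts. Its untested genes averaged under 10 each, so nearly all of that sum came from the 1 tested gene. Whether that gene reflects plasma or B cells in the cornea was not tested. The immunoglobulin genes *Igha*, *Ighm* and *Igkc* were not analysed here.

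The library CR 7 carried much of the spread in the cornea. Among the 7 tested members it had the highest value of all 10 libraries for *Wfdc2*, *Ltf*, *Pigr* and *Pglyrp1*, and the highest of the CR libraries for 6, *Lcn2* being the exception. It was also the library with the highest *Krt4* and the lowest *Krt12*, and its summed corneal epithelium list was 483051 normalized counts against 574549 to 704083 in the other libraries. Its summed conjunctival epithelium and goblet cell list was 81500 against 39230 to 56895 in the others. Without AL 1, the library with the most lacrimal gland transcripts, the log2 changes were −0.89 for *Pigr*, −1.17 for *Slpi* and −0.25 for *Defb1*. With AL 1 they were −0.83, −0.99 and −0.29. Leaving out AL 1 does not even out the lacrimal gland list, which summed to 144 to 1761 in the other AL libraries and 58.5 to 421 under CR. The part of these markers, and of the lower lacrimal gland list under CR, in the corneal values of *Pigr*, *Slpi*, *Defb1* and the other members was not tested.

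**Figure D4:**
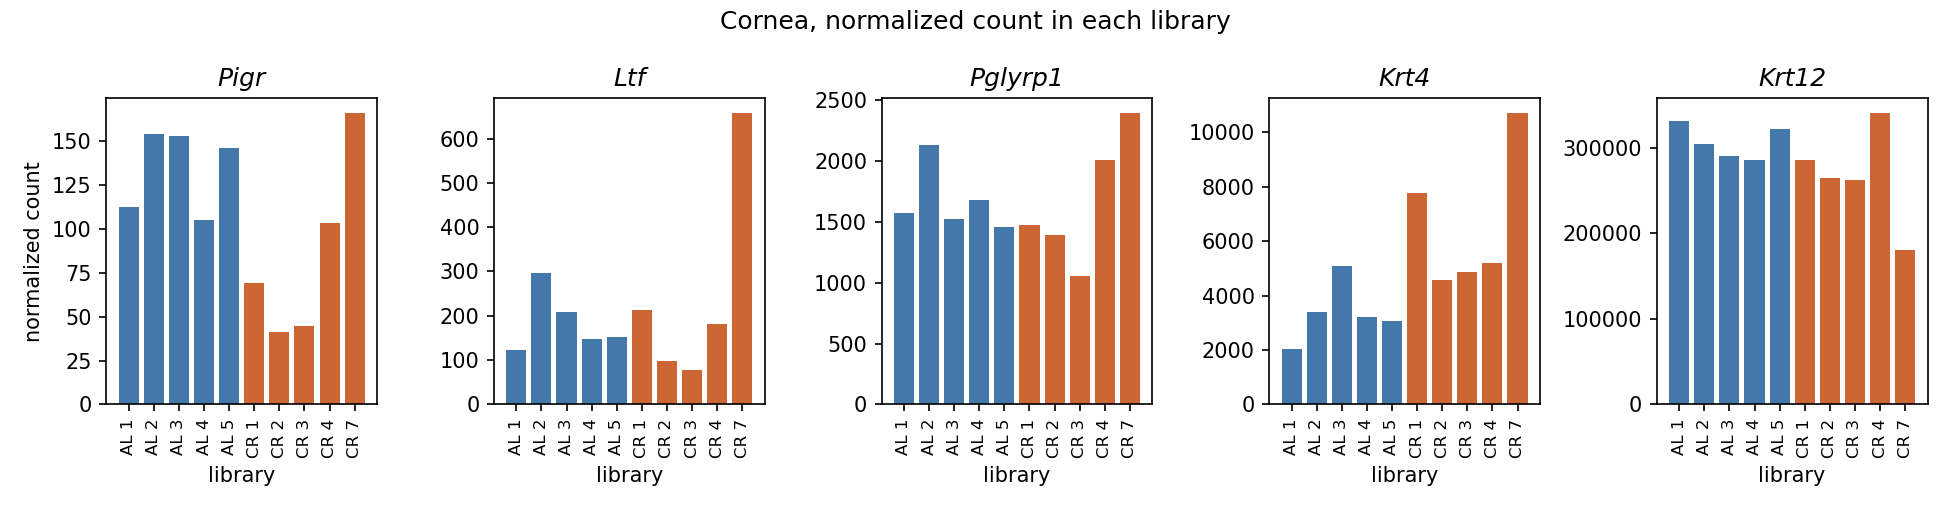
Bars give the normalized count of *Pigr*, *Ltf*, *Pglyrp1*, *Krt4* and *Krt12* in each cornea library (blue, AL; orange, CR; each panel has its own axis from 0). CR 7 has the highest value for *Pigr* (166), *Ltf* (658), *Pglyrp1* (2399) and *Krt4* (10724) and the lowest for *Krt12* (179846).

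The beta-defensin gene *Defb1* was lower under CR by a similar step in both tissues, before adjustment. Its corneal counts were 3001, 3128, 2718, 2179 and 2526 in AL 1 to AL 5, and 2175, 2009, 2035, 2381 and 2436 in CR 1, CR 2, CR 3, CR 4 and CR 7. CR 1, CR 2 and CR 3 lay below every AL library, and AL 4 was the lowest of its group. The log2 change was −0.29 ± 0.11 (SE, limma adjusted p = 0.196), less than the 1.5-fold asked of a called gene. With array weights it was −0.36, still under that fold, with an adjusted p of 0.0315. That was the lowest in a range of 0.0315 to 0.65 over all processing alternatives. In the conjunctiva it had 3377, 3280.05, 2870.25 and 3446 normalized counts in AL 1, AL 3, AL 4 and AL 5, and 3115, 2621, 2105, 2423 and 2929 in CR 1 to CR 5. CR 2, CR 3 and CR 4 lay below every AL library there. The log2 change was −0.31 ± 0.14 (SE, limma adjusted p = 0.522).

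*Pglyrp1*, the peptidoglycan sensor, differed little on average. Its corneal counts were 1571, 2135, 1523, 1682 and 1457 in AL 1 to AL 5, and 1471, 1395, 1055, 2013 and 2399 in CR 1, CR 2, CR 3, CR 4 and CR 7. The CR libraries spread on both sides of the AL libraries, and the log2 change of −0.05 had a 95% interval of −0.46 to 0.35 (limma adjusted p = 0.911). In the conjunctiva it had 5601, 5625, 6847 and 5617 normalized counts in AL 1, AL 3, AL 4 and AL 5, and 7509, 6485, 4428, 5763 and 7989 in CR 1 to CR 5. CR 1 and CR 5 lay above every AL library and CR 3 below, with a log2 change of 0.09 and a 95% interval of −0.26 to 0.45 (limma adjusted p = 0.903). *Camp*, the cathelicidin gene, had 0 reads in all 10 cornea libraries and in 8 of the 9 conjunctiva libraries. The remaining library, conjunctiva CR 4, had 7 reads, or 7.17 normalized counts.

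The 2 tissues were then compared. Each table was normalized separately by the authors, so levels across tissues are given in RPM, reads scaled to 1000000 counted reads per library, and were not tested. Every conjunctiva library lay above every cornea library for *Lcn2*, *Pigr*, *Wfdc2* and *Pglyrp1*, 4 of the 7 members with reads in both tissues, where this held for 18.1% of 14277 genes. Mean *Lcn2* was 34.3 times as high in the conjunctiva, with 9.98 to 61.6 RPM against 0.178 to 3.28 in the cornea. Mean *Pigr* was 8.28 times as high, with 38.9 to 114 against 3.58 to 13.9. *Wfdc2* was 7.32 times as high (967 to 1574 against 131 to 186) and *Pglyrp1* 3.51 times (384 to 622 against 94.8 to 200.4). The tissues overlapped for the other members. *Ltf* ranged from 23.8 to 81.6 RPM in conjunctiva libraries and from 6.95 to 55.01 in cornea libraries, *Slpi* from 3.66 to 14.7 and from 2.12 to 14.9, and *Defb1* from 181 to 291 and from 174 to 267. The order of the group means from low to high was therefore the same for *Lcn2*, *Pigr*, *Wfdc2* and *Pglyrp1* in placing both corneal groups below both conjunctival groups, while neighbouring diet groups within a tissue overlapped.

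**Figure D5:**
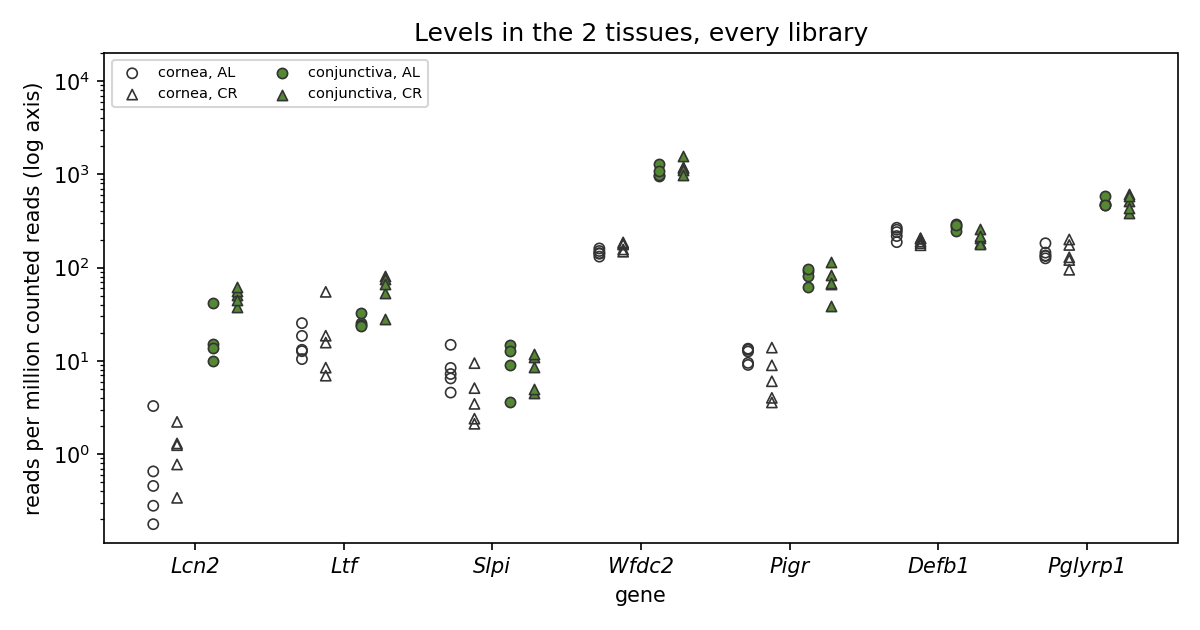
The vertical axis is RPM (reads scaled to 1000000 counted reads) on a log axis, with open symbols for cornea and filled symbols for conjunctiva, circles for AL and triangles for CR, 1 symbol per library. The filled symbols of *Lcn2*, *Wfdc2*, *Pigr* and *Pglyrp1* all lie above the open ones, and *Ltf*, *Slpi* and *Defb1* overlap.

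Whether CR acted differently in the 2 tissues was tested as the difference of the log2 changes, cornea minus conjunctiva. None of the 7 members passed, where 2 of 11928 genes (0.0168%) did at an adjusted p under 0.05. *Ltf* had the smallest p, with log2 changes of 0.03 and 1.2 and a difference of −1.17 (95% interval −2.44 to 0.10, adjusted p = 0.682 from the limma fits). The differences for *Lcn2* (−0.90, −2.82 to 1.02), *Slpi* (−0.86, −2.03 to 0.30) and *Pigr* (−0.69, −1.53 to 0.15) had wide intervals. Those of *Defb1* (0.02, −0.35 to 0.39), *Wfdc2* (−0.04, −0.44 to 0.36) and *Pglyrp1* (−0.15, −0.66 to 0.37) were narrower.

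The members belong to a wider set of secreted defense genes, of which 44 were listed as companions. In the cornea 16 of these were tested, 6 with a higher and 10 with a lower mean under CR and a median log2 change of −0.04. None was called and 1 had an unadjusted p under 0.05, beside 18.1% of all tested genes. That 1 was *Defb14*, another beta-defensin, with 12.4 ± 13.9 normalized counts in AL and 36.1 ± 25.8 in CR (SD, n = 5 each, log2 change 1.63 ± 0.75, limma adjusted p = 0.260). Next in the cornea were *Pglyrp4* (log2 change −0.52 ± 0.32, limma adjusted p = 0.410) and *Retnla* (−1.40 ± 0.96, limma adjusted p = 0.459). In the conjunctiva 22 were tested, 10 with a higher and 12 with a lower mean, a median of −0.08 and none called. At an unadjusted p under 0.05 stood 4, 1 higher and 3 lower, beside 9.4% of all tested genes. The higher one, *Pglyrp4*, went from 208 ± 57.0 (SD, n = 4) to 309 ± 108 (SD, n = 5, log2 change 0.54 ± 0.24, limma adjusted p = 0.498). *Retnla*, a resistin-like protein of macrophages and epithelium, went from 2480.2 ± 616 (SD, n = 4) to 864 ± 449 (SD, n = 5), and its groups did not overlap (log2 change −1.62 ± 0.33, limma adjusted p = 0.0889). The antimicrobial chemokine gene *Cxcl14* went from 136 ± 39.8 to 61.7 ± 16.6 (log2 change −1.12 ± 0.30, limma adjusted p = 0.157), also without overlap. Groups without overlap were seen for 3.86% of tested genes in the conjunctiva. *Lyz2*, the lysozyme of macrophages, went from 422 ± 127 to 220.1 ± 93.3 (−0.997 ± 0.30, limma adjusted p = 0.247). All 9 macrophage list genes tested in the conjunctiva had a lower mean under CR, and *Lyz2* is itself on that list. Of the 9, 6 had an unadjusted p under 0.05, beside 9.4% of all tested genes, and none was called. All 7 fibroblast list genes had a lower mean as well, with *Col1a1* and *Col3a1* called. The part of these cell types in the values of the companions was not tested.

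Receptors and partners of the members showed no change past either threshold. Of 15 listed genes, 9 were tested in each tissue, and 0 had an unadjusted p under 0.05 in limma. Corneal receptors had a median log2 change of −0.15 (3 higher and 6 lower) and conjunctival ones −0.22 (2 higher and 7 lower). The smallest p-values were those of *Ccr6*, a receptor for beta-defensins, and *Cd14*, a receptor for bacterial lipopolysaccharide, in the cornea (limma adjusted p = 0.45 and 0.564). In the conjunctiva they were those of the formyl peptide receptor *Fpr2*, which cathelicidin also engages (limma adjusted p = 0.592), and *Cd14* (limma adjusted p = 0.661). The lactoferrin receptor *Lrp1* had log2 changes of −0.15 ± 0.13 and −0.22 ± 0.15 (SE, limma adjusted p = 0.572 and 0.689).

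Genes that induce or regulate the members had means on both sides. All 26 were tested in the cornea, 16 with a higher and 10 with a lower mean under CR and none called. At an unadjusted p under 0.05 stood 6, 3 higher and 3 lower, beside 18.1% of all tested genes. *Il1r1*, the signalling receptor for interleukin-1, went from 272 ± 55.8 to 147 ± 61.3 normalized counts (SD, n = 5 each), and its log2 change was −0.95 ± 0.24 (SE, limma adjusted p = 0.0531). *Cebpb*, a factor that binds C/EBP sites, went from 81.8 ± 21.0 to 152 ± 36.0 (log2 change 0.89 ± 0.24, limma adjusted p = 0.0678). Its groups did not overlap, as for 3.97% of tested genes in the cornea. The NF-kappaB subunit gene *Nfkb1* went from 250.4 ± 37.7 to 407 ± 114 (0.66 ± 0.19, limma adjusted p = 0.0847). In the conjunctiva 25 were tested, 9 with a higher and 16 with a lower mean and none called. Of these 6 had an unadjusted p under 0.05, 2 higher and 4 lower, beside 9.4% of all tested genes. *Il6ra*, the interleukin-6 receptor gene, went from 71.6 ± 16.7 (SD, n = 4) to 146 ± 20.9 (SD, n = 5) with no overlap (log2 change 1.04 ± 0.25, limma adjusted p = 0.0991). *Il1r1* went from 617 ± 95.4 to 373 ± 114 (−0.77 ± 0.21, limma adjusted p = 0.168). The interferon-gamma receptor gene *Ifngr1* went from 1367 ± 311 to 1013 ± 17.5 with no overlap (−0.41 ± 0.15, limma adjusted p = 0.36). Over all tested genes in the conjunctiva, 3.86% had groups without overlap. Conjunctival *Cebpb* and *Nfkb1* had log2 changes of −0.04 ± 0.17 and −0.20 ± 0.21 (SE, limma adjusted p = 0.963 and 0.819).

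The genes whose pattern across libraries was most like that of a member were found by Pearson r on log2 values after the mean of each diet was removed, as a description without a test. Libraries of a tissue share depth and composition, and in the cornea the pattern of several members was set in part by CR 7. For corneal *Slpi* these were *Anks3* (r = 0.965), *Tle1* (0.941) and *Snx10* (0.936) over 10 libraries. For corneal *Pigr* they were *Csta1* (0.974), *Asah1* (0.958) and *Tspan1* (0.955), and for corneal *Defb1* they were *Slc28a3* (0.962), *Ilk* (0.934) and *Elovl5* (0.930). In the conjunctiva, over 9 libraries, *Lcn2* was closest to *Dnaja1* (0.964), *Aldh1a3* (0.956) and *Pcyox1* (0.941), *Ltf* to *Mcm9* (0.967), *Fgf12* (0.948) and the mucin gene *Muc13* (0.938), and *Defb1* to *Nsdhl* (0.972), *Tmem43* (0.947) and *Foxa1* (0.946). Over all members, the 3 closest genes had r between 0.879 and 0.984 (cornea) or 0.938 and 0.977 (conjunctiva).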

How the data were processed

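RNA was sequenced from 10 cornea and 9 conjunctiva libraries, grouped by their labels. One legend in the study swaps the conjunctiva group sizes, and the labels were followed. The authors aligned reads to the mouse genome (mm10 in the methods, GRCm39 in the submitters' processing notes), counted them per gene and scaled them with DESeq2 size factors. The deposited values are log2 of the normalized count plus 1, 1 table per tissue. All values (100%) came back as whole reads (tolerance 0.01). The labels and the methods name different library kits, so use of strand is unknown and levels of different genes were not compared. Each table held 24557 features, of which 10 rows sharing a symbol were left out and 483 lacked a gene identifier. No column was unmapped.

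Diets were compared per tissue with limma 3.58.1 (statmod 1.5.0, R 4.3.3), with trend and robust moderation, over genes averaging 10 or more normalized counts. Changes are given on log2(normalized count + 1), which understates those of low genes. The difference between tissues was divided by its standard error (Satterthwaite degrees of freedom). P-values were adjusted over all genes tested. The members, lists and tests were chosen with earlier results of these data known. Named list genes were the 3 with the smallest p per list and tissue. Genes of like pattern were named for members at an unadjusted p under 0.05. Alternatives were other pseudocounts and filters, quantile and TMM scaling, array weights, voom on recovered reads, a replicate block, a covariate for genes at 0, and leaving out each library. The scripts were tested on simulated counts. Tables and figures used Python 3.11.15, pandas 2.3.3, SciPy 1.17.1 and Matplotlib 3.10.9.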

Additional observations from a re-analysis of the deposited data

Results flagged for a closer look

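Of 29 groups of 4 or 5 libraries with any spread, 3 held a library far from the rest of its group by Dixon's ratio. Chance gives about 1 in 20 groups where groups are independent, and these share their libraries. Conjunctiva AL 3 lay above the other AL libraries for *Ltf*, at 8.62 on the log2 scale (393 normalized counts). Conjunctiva CR 4 was the only library with reads of *Camp*, at 3.03 on the log2 scale (7.17 normalized counts). With the other 4 CR libraries at 0, any count above 0 gives a ratio of 1, so this group cannot be set against chance. Conjunctiva AL 4 lay above the other AL libraries for *Pglyrp1*, at 12.74 on the log2 scale (6847 normalized counts). *Lcn2* in conjunctiva AL 3, which separates its overlapping diets when left out, did not pass this ratio.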

How the results depend on the processing

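Members called numbered 0 in both tissues and 1 in each with array weights (*Pigr* in the cornea, *Ltf* in the conjunctiva). With each library left out in turn they ranged from 0 to 1 in both tissues, the calls being *Pigr* without cornea CR 7, *Lcn2* without conjunctiva AL 3 and *Ltf* without conjunctiva CR 4. Each time the library left out was one through which the diets overlapped for that gene. Over all tested genes 162 were called without cornea CR 7 and 41 without conjunctiva AL 3. All genes called in the cornea went from 150 to 705 with array weights and 62 with a covariate for the percentage of genes at 0, and to between 53 and 536 with a library left out (536 without AL 4, 309 without CR 1). In the conjunctiva they went from 50 to 149 with array weights and to between 26 and 127 with a library left out (127 without CR 3). Among the listed companions, receptors and regulators, 1 was called in the cornea, *Il1r1*, with a pseudocount of 4, a filter at a mean of 50 or quantile normalization. With array weights 3 corneal and 2 conjunctival ones were called, the covariate gave 1 in the conjunctiva, and leaving out a library gave 0 to 3 in either tissue.

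Directions turned in some settings, and the cause was not tested. Corneal *Ltf* was −0.32 with array weights, −0.49 with the replicate block and −0.43 to 0.34 with a library left out, and corneal *Pglyrp1* ran from −0.20 to 0.10. Conjunctival *Pglyrp1* was −0.0106 with quantile normalization and −0.0098 with the covariate, and conjunctival *Slpi* ran from −0.54 to 0.11 and *Pigr* from −0.35 to 0.046 with a library left out. Corneal *Fpr2* was 0.27 with quantile normalization and 1.86 with the covariate, corneal *Ccr6* 0.21 with the covariate, and corneal *Il6ra* −0.0016 to 0.45 with a library left out. Conjunctival *Nfkb1* was 0.0061 with array weights, and *Cebpb* 0.016 with the replicate block and −0.15 to 0.033 with a library left out. Taken per shared title number, the difference between tissues passed for 0 genes in place of 2, and that of *Wfdc2* was 0.047.

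Within a tissue, an AL and a CR library with the same title number were compared by the correlation of their deviations from the diet mean. These correlations ran from −0.297 to 0.288 (cornea) and −0.062 to 0.053 (conjunctiva). They were not set against those of unlike numbers and did not cover numbers shared across tissues, so they cannot decide whether libraries were paired. The replicate block called 46 genes in the cornea and 10 in the conjunctiva. Corneal *Lcn2* rests on 2 to 34 reads per library, and its fit covers both counting error and the spread between libraries.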

Other observations

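Some secreted genes that belong to the lists above were looked up singly after their values were seen. *Reg3g*, an antibacterial lectin, was present in the conjunctiva at 414 ± 43.8 (SD, n = 4) in AL and 772 ± 683 (SD, n = 5) in CR (log2 change 0.43, limma adjusted p = 0.892), and was below the filter in the cornea. The goblet cell mucin gene *Muc5b* had 352 ± 69.8 and 714 ± 334 normalized counts in the conjunctiva, with all 5 CR libraries above all AL libraries (log2 change 0.93, limma adjusted p = 0.244), while *Muc5ac* had 4515 ± 1014 and 4066 ± 1775 (log2 change −0.23, limma adjusted p = 0.861). The matrix protease gene *Mmp9*, a member of the neutrophil list, had 482 ± 131 and 224 ± 70.0, with all 5 CR libraries below all AL libraries (log2 change −1.12, limma adjusted p = 0.0767). Of all genes tested in the conjunctiva, 3.86% had groups without overlap.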
